A study of Homo sapiens with 2 samples.

Results

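The 224 peaks described here are the binding sites of the transcription factor TCF4 that the authors placed inside the body of the assigned gene, on every chromosome except 3 and 18. They were chosen by the authors' position mark (Within) and by chromosome alone, with no use of read counts or enrichment. They make up 224 of 662 listed peaks and lie in 126 genes. The label holds by construction, since each one lies between the start and the end of its assigned transcript in the authors' annotation. The 207 flanking peaks of the same chromosomes, 105 upstream and 102 downstream of their genes, serve for comparison.

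TCF4, also called E2-2, is a basic helix-loop-helix protein of the E-protein family. E proteins bind as dimers to the E-box, written CANNTG, where N is any base, and ID proteins block them by forming dimers that cannot bind DNA. E proteins act in B-lineage commitment and immunoglobulin gene activity, and TCF4 is also known for its role in plasmacytoid dendritic cells. Sites of such factors inside genes can lie at enhancers in introns, at promoters of internal transcript starts, or at neither, and a peak list alone does not say which.

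TCF4 binding was measured by sequencing of immunoprecipitated chromatin (ChIP-seq). The cells were SU-DHL-2, a human lymphoma line of the ABC type, the activated B-cell-like form of diffuse large B-cell lymphoma (DLBCL). The TCF4 ChIP library came from cells with a tetracycline-inducible TCF4, given 60 ng/ml doxycycline for 24 hours and fixed with 1% formaldehyde. The input library is whole-cell DNA of cells of the same line, construct and treatment, without precipitation. Both libraries thus carry induced TCF4, cells without induction were not analysed here, and there was 1 library of each kind. The line is a single overexpression model, so the sites are those of TCF4 at its induced level.

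The deposited table is a selection, since it keeps only peaks tied to a TCF4 gene signature. Genes carry an Up or Down mark whose comparison the headers leave unstated. None of 12 general markers of B, T and myeloid cells had a listed peak, so the cell type cannot be checked from it. The 224 intragenic peaks held 27806 ChIP reads and 4308 input reads. If the deposited signal is in reads per kilobase and per M (mega) reads, the ChIP library had 93.5 M reads in all and the input library 84.4 M. Enrichment is given as the ChIP to input read ratio after this scaling, with a 95% exact binomial interval that covers counting error only. Peaks of 1 ChIP library are not replicates, so no test was made between sets of peaks, and differences between sets are descriptions. Every listed peak had an unscaled log2 ratio of at least 2.01, so weak sites are missing from all medians.

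Only 4 of the 224 peaks reached across the annotated start site, those of EEF2K, F11R, SYTL1 and ZWINT. The RefSeq promoter windows used included 3 of these 4 genes, without F11R. Of the 3, EEF2K and SYTL1 had the most of the stretch before the start inside their peaks. These 2 stretches are shown. By the authors' distances, the peaks covered all 250 bases and the last 69 bases of them. The sequences are RefSeq reference sequence of build GRCh38.p14, both on the plus strand, from the 250th to the 1st base before the start, at chr16:22206028-22206277 and chr1:27341772-27342021. Capitals mark E-boxes (CANNTG, which reads the same on both strands).
EEF2K: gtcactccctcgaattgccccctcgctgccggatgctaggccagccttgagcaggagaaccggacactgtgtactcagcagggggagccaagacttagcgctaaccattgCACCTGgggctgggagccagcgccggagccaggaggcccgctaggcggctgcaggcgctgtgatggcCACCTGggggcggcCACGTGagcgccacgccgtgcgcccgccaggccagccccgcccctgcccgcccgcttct
SYTL1: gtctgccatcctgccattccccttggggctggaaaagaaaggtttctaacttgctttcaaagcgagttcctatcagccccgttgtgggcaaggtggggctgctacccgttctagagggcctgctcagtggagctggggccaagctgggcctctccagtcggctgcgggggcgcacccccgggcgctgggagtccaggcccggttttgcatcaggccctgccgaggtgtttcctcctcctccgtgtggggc
The EEF2K window held 3 E-boxes, beginning 140, 73 and 59 bases before the start, and the SYTL1 window held none. The ZWINT windows, not shown, also held none, and the ZWINT peak covered only their last 24 bases. Of 35116 RefSeq promoter windows of this length, 61.8% held at least 1 E-box and 10.4% held 3 or more. The EEF2K E-boxes at 140 and 73 bases read CACCTG, which is CAGGTG on the other strand, and 2.53% of all windows held 2 or more of that form, each of which is also counted as a CANNTG match. A match is a description of letters and no evidence of which base was bound. The authors' transcripts were 14 and 30 bases longer than the RefSeq genes, so the starts may differ by such amounts. The builds also differ, and the peak sequences themselves were not analysed here.

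The peaks were spread along the whole length of the genes, with fewer in the last stretch before the end. Relative position is the distance to the start divided by the sum of the distances to the start and to the end. Its median was 0.49 (quartiles 0.24 and 0.70). Transcripts were divided into 10 equal bins. The first bin held 22 peaks, 9.82% (95% Wilson interval 6.58 to 14.4), where an even spread would place 22.4. The next 8 bins held 19 to 29 peaks each. The last bin held 9 peaks, 4.02% (2.13 to 7.46). Whether a peak fell in an exon or an intron was not analysed here. Slightly more peaks lay nearer the start than the end, 121 of 224, or 54.02% (47.5 to 60.4). These intervals treat peaks as independent although 59 of the 126 genes hold more than 1.

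**Figure D1:**
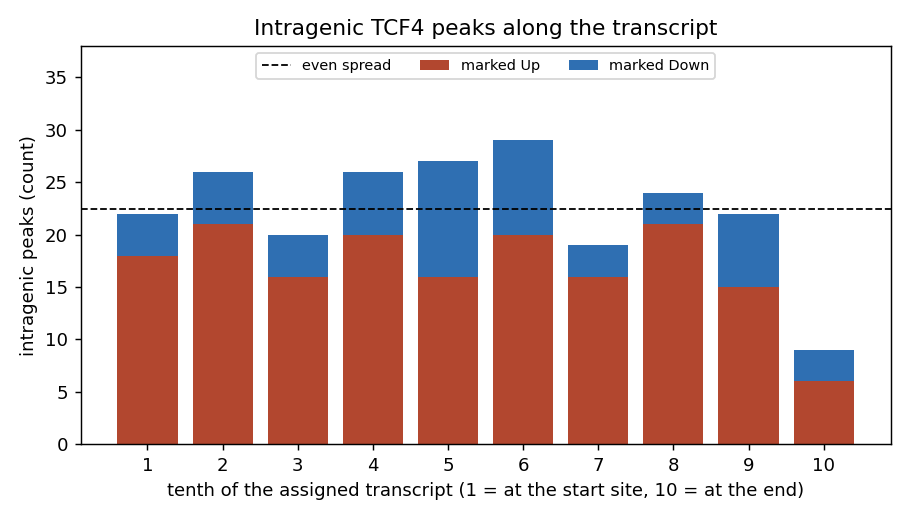
Number of intragenic TCF4 peaks in each of 10 equal bins of the assigned transcript, stacked by the authors' mark of the gene, with the even spread of 22.4 as a dashed line. The first 9 bins hold 19 to 29 peaks each and the last holds 9.

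Enrichment varied little with position. The median scaled log2 ratio, the authors' deposited value, lay between 2.14 and 2.41 in every bin. Spearman's rho between relative position and this ratio was 0.05 over the 224 peaks, which share 1 ChIP and 1 input library. The 9 peaks of the last bin included 3 enriched at least 8-fold, at CACYBP, E2F2 and UHRF1. The other bins, of 19 to 29 peaks, held 1 to 3 such peaks each, and the share over all 662 listed peaks was 9.06%. The 5 peaks nearest the end were those of CACYBP, E2F2, PTAFR, BICD1 and UHRF1. CACYBP encodes a calcyclin-binding protein, and its site at chr1:174980810-174981222 (hg19) was 98.8% of the way along, 0.147 kb before the transcript end. With 85 ChIP reads over only 5 input reads, it was enriched 15.3-fold (6.32 to 48.5). The peak of E2F2, a cell cycle transcription factor gene, had 26 ChIP reads and 2 input reads, so its 11.7-fold enrichment had an interval of 2.94 to 102. UHRF1 encodes a protein that maintains DNA methylation, and its peak at 94.7% had 162 ChIP reads and 13 input reads (11.2-fold, 6.40 to 21.6).

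Most intragenic sites were far from the start in absolute terms. The median distance to the start site was 26.5 kb (quartiles 10.4 and 51.6 kb) in transcripts with a median length of 66.9 kb. The authors marked 21 peaks, 9.38% (6.21 to 13.9), as promoter, and all of these lay within 1.82 kb of the start. A further 34 lay between 2 and 10 kb, 111 between 10 and 50 kb, 33 between 50 and 100 kb and 25 beyond 100 kb. Of the 21 promoter peaks 16 lay in the first bin of their transcript. Without promoter peaks 6 of 203 fell there, 2.96% (1.36 to 6.30), and 9 in the last bin, 4.43% (2.35 to 8.21). The other peaks all lay at least 2.09 kb from the start, so removing promoter peaks lowers the first bin by construction. The first and last bins of these 203 therefore cannot be compared.

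Promoter peaks had a median of 136 ChIP reads and a median scaled log2 ratio of 2.44, against 95 reads and 2.25 for the other 203. They were also wider, with medians of 528 and 431 bp, and had more input reads, 22 and 17. At least 8-fold were 2 of 21 promoter peaks, 9.52% (2.65 to 28.9), and 21 of the other 203, 10.3% (6.87 to 15.3), beside 9.06% of all listed peaks. EEF2K encodes the kinase of elongation factor eEF2. Its promoter peak, which covers the sequence above, lay 37 bp from the start at chr16:22217312-22217944 (hg19), with 136 ChIP and 31 input reads. At 3.96-fold (2.66 to 6.05) it ranked 196 of 224 by the scaled ratio. F11R, the gene of the junctional adhesion molecule JAM-A, had its peak 75 bp from the start at 6.88-fold (4.07 to 12.4). SYTL1, which encodes a synaptotagmin-like protein of vesicle transport and is marked Down, had 136 ChIP and 18 input reads at its start, or 6.82-fold (4.16 to 11.9). The EEF2K and SYTL1 peaks had equal ChIP reads over unequal input reads. SYTL1, ZWINT and E2F1 are named for their place near the start, after their values were seen.

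The strongest promoter peak was that of CRYZ, a quinone oxidoreductase gene, 1.18 kb inside the transcript at chr1:75197555-75198276. It had 250 ChIP reads and 16 input reads, 14.1-fold (8.51 to 25.1). LMO2, a partner of E proteins in transcription complexes, had 252 ChIP reads and 28 input reads 0.328 kb from its start. E2F1, a cell cycle transcription factor gene, had 281 ChIP reads and 27 input reads in a peak of only 150 bp, 9.39-fold (6.32 to 14.5). Its deposited input signal, 2.13, and ChIP signal, 20.04, were both the highest of the 224 peaks, whose medians were 0.42 and 2.21. The peak of USP7, a deubiquitinase gene, 0.796 kb inside was enriched 7.25-fold (4.92 to 11.1). Promoter peaks of PAWR (5.54-fold) and METTL3 (3.82-fold), named here after their values were seen, lay 1.76 and 1.82 kb inside. PAWR encodes a pro-apoptotic protein and METTL3 an RNA adenosine methyltransferase.

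Intragenic and flanking peaks were alike in width and enrichment by these summaries. The median width was 436 bp for intragenic and 425 bp for flanking peaks, and the upper quartiles were 586.5 and 530.0 bp. The median ChIP reads were 97 and 89, and the median input reads 17 and 16. The median scaled log2 ratio was 2.27 for intragenic and 2.32 for flanking peaks. Intragenic peaks lay at a median of 26.5 kb from the start, against 43.7 kb for all flanking peaks. Upstream peaks were about as near, at 24.9 kb, and downstream peaks lay at 60.1 kb. A position inside the transcript is bounded by its length, and a downstream peak lies beyond that length. Within the 61 genes that had both kinds, the intragenic minus flanking difference of the median scaled log2 ratio had a median of 0.02 (quartiles -0.23 and 0.47), and the intragenic peaks were higher in 33 of the 61.

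**Figure D2:**
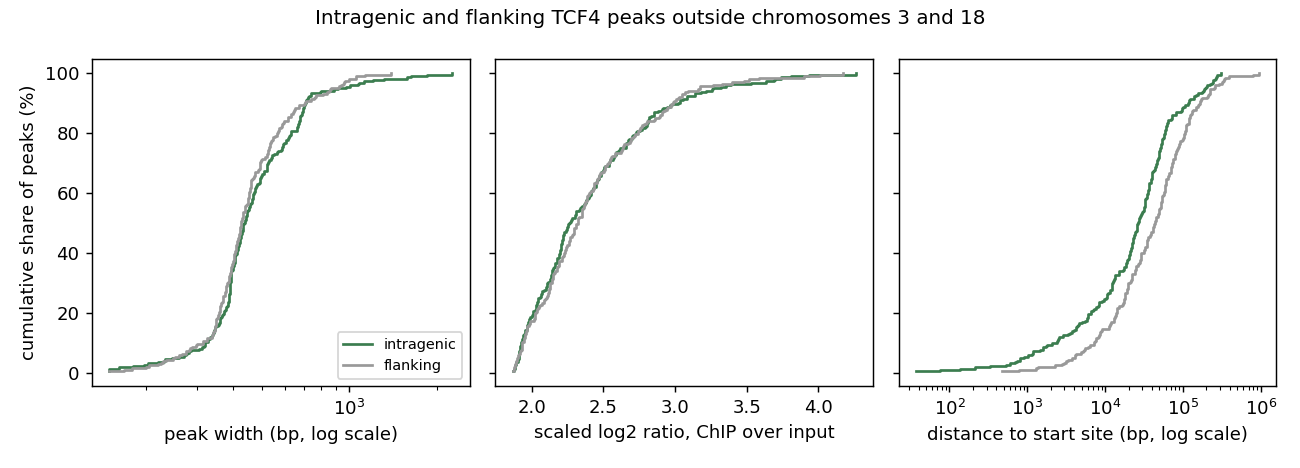
Cumulative share of peaks against peak width (bp, log axis), the authors' scaled log2 ratio, and distance to the start site (bp, log axis), for 224 intragenic and 207 flanking peaks. The curves of width and ratio run close together, with medians of 436 and 425 bp and of 2.27 and 2.32, and the intragenic curve of distance lies to the left, with medians of 26.5 and 43.7 kb. The flanking curve pools upstream peaks (median distance 24.9 kb) and downstream peaks (60.1 kb).

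The share of strong peaks was near that of the whole table. At a scaled ratio of at least 8-fold there were 23 intragenic peaks, 10.3% (6.94 to 14.9), against 9.06% of all 662 listed peaks. This call uses the authors' ratio, which adds 1 read to both counts, so a peak printed here at just over 8-fold, such as those of LMO2 and ARHGAP24, can fall below it. Without the added reads the share was 13.4%. Of the flanking peaks 19 of 207 reached it, 9.18% (5.95 to 13.9). The 23 lay in 20 gene names, and 7 of them rested on under 10 input reads. The immunoglobulin heavy-chain locus gave 4 of the 23, and without its rows 19 of 217 remained, 8.76% (5.68 to 13.3). The interval of the enrichment lay wholly above 5.01-fold, the median of all listed peaks, in 18 of the 23.

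HIVEP1, which encodes a zinc-finger factor that binds NF-kappaB-type sites, had the highest ratio. Its peak at chr6:12044555-12045292 (hg19), 32.2 kb inside a transcript of 152.5 kb, had 551 ChIP reads and 25 input reads, 19.9-fold (13.3 to 31.01). A second HIVEP1 peak at 90.8% of the transcript had 49 ChIP reads and 7 input reads, 6.32-fold (2.85 to 16.5). The intervals of both peaks overlapped. SUSD3, a membrane protein gene marked Down, also had unequal peaks. The one 3.57 kb inside, at chr9:95824006-95825074, had 372 ChIP reads and 23 input reads, 14.6-fold (9.58 to 23.3). The one 20.9 kb inside had 105 ChIP reads and 22 input reads, 4.31-fold (2.70 to 7.17), with an interval below that of the first. The input reads at both were nearly equal and the ChIP reads differed.

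ITGAX, the gene of the integrin CD11c and marked Down, had the widest intragenic peak outside the heavy-chain locus, 1583 bp at 80.02% of the transcript, with 466 ChIP reads and 43 input reads. The next widest were those of BCL2L11 at 1209 bp, ALOX5 at 1084 bp, SUSD3 at 1068 bp, PDE4DIP at 1006 bp and BICD1 at 977 bp. BCL2L11 encodes the pro-apoptotic protein BIM and ALOX5 the 5-lipoxygenase of leukotriene synthesis. Width did not go with enrichment in all of them. The peaks of BCL2L11, ALOX5 and PDE4DIP reached 5.33-fold (3.67 to 7.97), 6.02-fold (4.09 to 9.15) and 4.66-fold (3.54 to 6.22). Over the 224 peaks rho was 0.84 between width and ChIP reads, and 0.35 between width and the scaled log2 ratio. A wider peak holds more reads at the same density, and the points share the same libraries.

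The USP7 peak 27.3 kb inside the gene had 254 ChIP reads and 22 input reads, 10.4-fold (6.73 to 16.9). Other peaks of at least 8-fold, named after their values were seen, were those of FN3KRP, ECHS1 and INPP5F. FN3KRP, a kinase gene that acts on sugar-modified proteins, had 359 ChIP reads and 34 input reads, 9.53-fold (6.70 to 13.98). ECHS1, an enzyme gene of mitochondrial fatty acid oxidation, had 206 ChIP reads and 21 input reads, 8.85-fold (5.64 to 14.6). INPP5F, a phosphoinositide phosphatase gene, had 108 ChIP reads and 11 input reads, 8.86-fold (4.76 to 18.3).

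**Figure D3:**
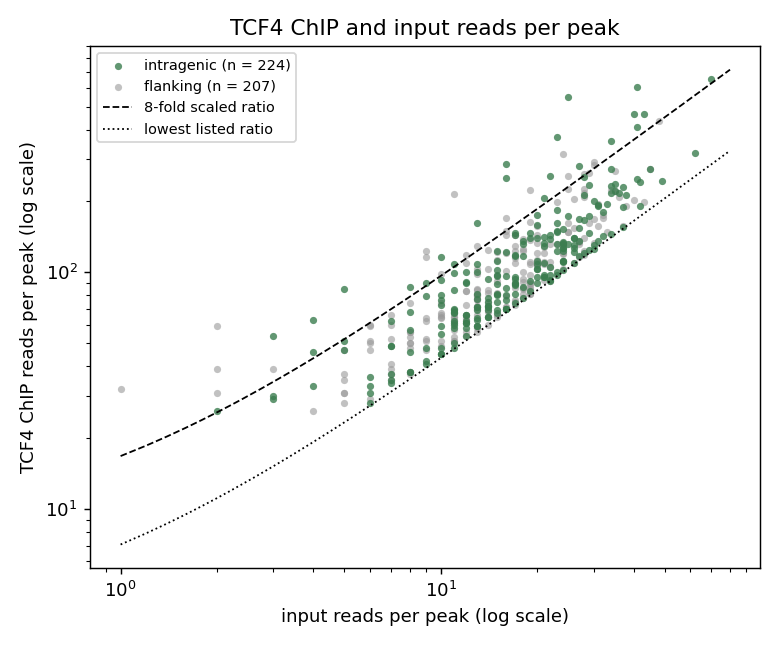
TCF4 ChIP reads against input reads per peak (both axes log) for 224 intragenic and 207 flanking peaks, with lines at an 8-fold scaled ratio and at the lowest listed unscaled log2 ratio of 2.01. Both kinds fill the same band above the lower line, with 23 intragenic and 19 flanking peaks on or above the 8-fold line.

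Many genes carried more than 1 intragenic peak. Of the 126 genes 67 had 1, 37 had 2, 12 had 3 and 10 had 4 or more. The 22 genes with 3 or more held 83 of the 224 peaks. Neighbouring peaks of a gene lay a median of 20.4 kb apart (quartiles 15.0 and 34.2 kb). Only 1 of 98 such pairs was under 1 kb apart, at AZIN1. With peaks classed by the length of their own assigned transcript, there were 1.04 peaks per gene under 20 kb and 2.27 at 100 kb or longer. A gene whose peaks had different transcripts can count in more than 1 length class.

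**Figure D4:**
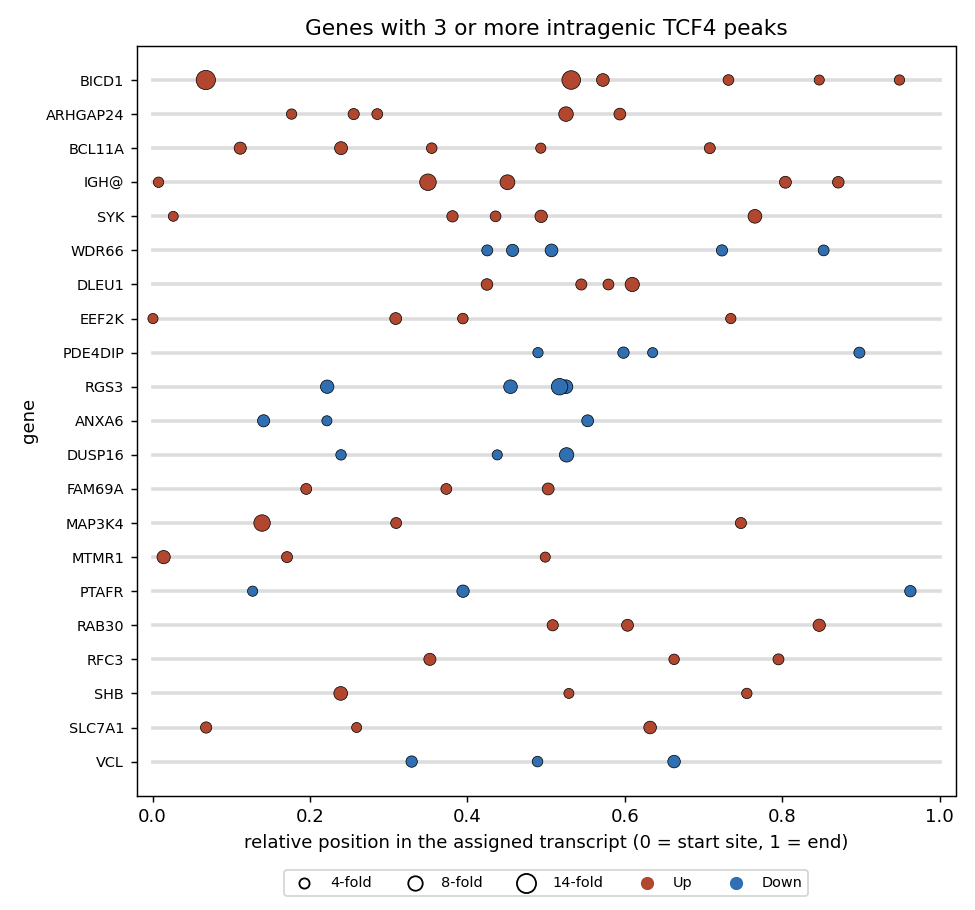
Relative position of each intragenic peak in 21 of the genes with 3 or more, from the start site (0) to the end (1) of the transcript assigned to that peak, with point area proportional to the fold enrichment and colour for the authors' mark. BICD1 has 6 peaks from 0.07 to 0.95 and WDR66 has 5 from 0.43 to 0.85.

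BICD1, which links cargo to the dynein motor, had the most, 6 peaks over 247.4 kb. The site at chr12:32406466-32407443 had 603 ChIP reads and 41 input reads, 13.3-fold (9.67 to 18.7). The peak 15.3 kb inside had 63 ChIP reads and 4 input reads, an enrichment of 14.2-fold whose interval was broad (5.29 to 53.8). The other 4 lay between 3.91-fold and 6.21-fold, and those 4 had 34 to 191 ChIP reads. BICD2, its paralog, named after its values were seen, had 2 peaks of 5.11-fold and 6.94-fold.

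Among genes of signalling to and inside the B cell, SYK, the proximal kinase of the B-cell receptor, had 5 peaks between 3.81-fold and 7.22-fold. The lowest, 3.81-fold (2.40 to 6.29), lay nearest the start and the highest, 7.22-fold (3.73 to 15.6), farthest along the gene. The intervals of all 5 overlapped, so the peaks cannot be ranked. SHB, an SH2 adaptor gene, had 3 peaks of 3.85-fold to 7.22-fold. MAP3K4, a kinase gene of stress signalling, had 3 of 4.59-fold to 10.4-fold, the highest on 46 ChIP reads and 4 input reads. DUSP16, a phosphatase gene for JNK, was marked Down and had 3 of 3.93-fold to 7.92-fold.

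RGS3, which turns off G-protein signals, was marked Down and had 4 peaks, of which 1 reached 8-fold by the authors' scaled ratio. They had 91, 158, 116 and 272 ChIP reads against 12, 20, 10 and 34 input reads. The enrichments were 6.84-fold (3.73 to 13.7), 7.13-fold (4.46 to 11.99), 10.5-fold (5.49 to 22.4) and 7.22-fold (5.04 to 10.6). All 4 exceeded the median intragenic enrichment of 5.04-fold, and their intervals overlapped. They were assigned to 3 transcripts. ARHGAP24, a GTPase-activating protein gene for RAC, had 5 peaks over 198.8 kb. The first, at chr4:86673111-86673569, reached 8.12-fold (4.35 to 16.8) with 99 ChIP reads and 11 input reads. The other 4 lay between 4.10-fold and 5.36-fold. PTAFR, the receptor of platelet-activating factor, was marked Down and had 3 peaks of 3.98-fold to 5.87-fold.

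BCL11A, a zinc-finger transcription factor gene of the B lineage, had 5 peaks within 61.7 kb, at 4.01-fold to 6.43-fold. WDR66, named CFAP251 in RefSeq and coding for a protein of cilia, was marked Down and had 5 peaks, between 42.5% and 85.3% of the assigned transcripts, with 70 to 117 ChIP reads and 4.51-fold to 6.21-fold. DLEU1, a non-coding RNA gene of chromosome 13, had 4 peaks of 4.55-fold to 7.75-fold, and all lay 189.7 to 272.1 kb from the start. EEF2K had 3 further peaks beside that at its start, of 36 to 45 ChIP reads and 4.06-fold to 5.42-fold. PDE4DIP, the gene of the Golgi and centrosome anchor myomegalin, was marked Down and had 4 peaks of 3.90-fold to 4.96-fold. Near-identical copies of PDE4DIP lie elsewhere on chromosome 1, and how reads matching several copies were counted is not stated.

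Other genes with 3 peaks were ANXA6, FAM69A, MTMR1, RAB30, RFC3, SLC7A1 and VCL. ANXA6 encodes an annexin, VCL the adhesion protein vinculin, RAB30 a Golgi GTPase and MTMR1 a phosphoinositide phosphatase. RFC3 encodes a subunit of the replication clamp loader and SLC7A1 the cationic amino acid transporter. Their 21 peaks lay between 3.86-fold and 6.74-fold, so none reached 8-fold. The highest was the MTMR1 peak 0.594 kb inside the gene.

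Over the 59 genes with 2 or more peaks, the highest enrichment exceeded the lowest by a median factor of 1.40 (quartiles 1.17 and 1.71), and by up to 3.63 in BICD1. The quartiles over all 224 intragenic peaks were 4.37-fold and 6.61-fold. A highest over lowest factor depends on the number of peaks in the gene and is not comparable with quartiles. Whether peaks of a gene differ less than peaks of different genes was not tested. The counting intervals of at least 1 pair of peaks lay apart in 3 of these genes, BICD1, SUSD3 and IGH@. Genes outside the naming rule numbered 83, of which 26 had 2 peaks, and held 109 peaks. Those 109 had 29 to 359 ChIP reads (median 92), and enrichments of 3.76-fold to 16.2-fold with a median of 5.03-fold.

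The heavy-chain locus on chromosome 14, which encodes antibody heavy chains, contributed 7 intragenic peaks under the names IGH@ and IGHM, all in a single annotated interval of 277.2 kb with no accession. Their median width was 1312 bp, against 431 bp for the other 217. Their ChIP reads ranged from 110 to 653 and their input reads from 16 to 70. The lowest enrichment was 4.14-fold (2.64 to 6.73) and the highest 16.2-fold (9.80 to 28.7), in a peak at chr14:106153242-106153908. The position values of these 7 depend on an interval that spans many genes, and some constant genes of the locus, those of the gamma and of the alpha subclasses, are near-identical to each other.

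Of 8 gene lists written with earlier results of these data known, 15 distinct genes of 175 had an intragenic peak outside chromosomes 3 and 18. B-lineage transcription factors had 3 of 29 (BCL11A, IRF4 and RUNX1) with 8 peaks. Their median scaled log2 ratio was 2.18, against 2.27 for all 224. Of these 8 peaks 0 reached 8-fold, beside 9.06% of all listed peaks, a share at which so few peaks may well give none. IRF4, a plasma-cell and ABC-DLBCL factor gene, had 102 ChIP reads and 24 input reads, 3.84-fold (2.44 to 6.26). RUNX1, a haematopoietic factor gene, had peaks of 4.96-fold (3.20 to 8.02) and 5.01-fold (2.61 to 10.6). In the list of B-cell receptor signalling, SYK had the 5 peaks given above. BLK of that list, a kinase gene of the SRC family, had 123 ChIP and 15 input reads at 7.40-fold (4.32 to 13.6), and 166 ChIP and 28 input reads at 5.35-fold (3.57 to 8.30).

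The ABC-type list had 2 of 20 genes, IRF4 and CREB3L2, with 3 peaks and a median of 1.95. CREB3L2, a transcription factor gene of the secretory pathway, had peaks of 4.10-fold (2.22 to 8.14) and 4.78-fold (3.07 to 7.73). The GCB-type list, of genes that mark the germinal-centre form of the lymphoma, had 2 of 17, LMO2 and DENND3, both marked Down, with a median of 2.58. DENND3, a RAB exchange factor gene, had 90 ChIP reads and 17 input reads, 4.78-fold (2.83 to 8.56). LMO2 was also the single gene of the 17 in the list of E proteins and partners, at 8.12-fold (5.49 to 12.5) and a scaled log2 ratio of 2.98. Apoptosis regulators had 2 of 24, BCL2L11 and BIK, both pro-apoptotic and both marked Up, with a median of 2.24. The BIK peak had 61 ChIP reads and 12 input reads, 4.59-fold (2.45 to 9.36).

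Adhesion and leukocyte surface genes had 2 of 25, ITGAX and CR1, both marked Down, with 3 peaks and a median of 2.47. The ITGAX peaks reached 9.78-fold (7.15 to 13.7) and 5.72-fold (3.59 to 9.54). CR1, the complement receptor gene, had 97 ChIP reads and 15 input reads, 5.84-fold (3.37 to 10.8). Regulators of small GTPases and G proteins had 2 of 27, ARHGAP24 and RGS3, with 9 peaks and a median of 2.68. Any listed peak, of any position and chromosome, was held by 6 of 29 B-lineage factors, 4 of 20 ABC-type, 2 of 17 GCB-type and 4 of 24 apoptosis genes. It was held by 3 of 25 adhesion genes, 2 of 27 GTPase and G-protein regulators and 2 of 17 E proteins and partners. Every list had few genes with a peak, and genes outside the signature could have none in this table.

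Peaks of genes marked Up and Down had similar values. Up genes held 169 intragenic peaks, 75.4% (69.4 to 80.6), and 96 of the 126 genes were marked Up. Of the flanking peaks 71.01% (64.5 to 76.8) were at Up genes. The median relative position was 0.48 at Up and 0.49 at Down genes, and the median scaled log2 ratio was 2.31 at Up and 2.22 at Down genes. At least 8-fold were 19 of 169 Up peaks, 11.2% (7.32 to 16.9), and 4 of 55 Down peaks, 7.27% (2.86 to 17.3). The share over all 662 listed peaks was 9.06%. The heavy-chain locus, marked Up, gave 4 of the 19 Up peaks. Beyond 100 kb from the start lay 24 Up peaks and 1 Down peak, that of CR1. These Up peaks were concentrated in a few long genes. BICD1, DLEU1 and ARHGAP24 each had several of them, as did the heavy-chain interval. Without the heavy-chain rows 20 of 217 peaks of either mark lay beyond 100 kb. Over peaks, the assigned transcripts were longer at Up genes, with medians of 71.1 and 57.2 kb.

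Chromosome 12 held the most intragenic peaks, 33 in 17 genes, or 14.7% of the 224, followed by chromosome 1 with 28 and chromosome 9 with 22. The intragenic share was 51.97% (47.3 to 56.7) outside chromosomes 3 and 18 and 51.95% (45.5 to 58.3) on them. The mark belongs to the gene, so peaks of a gene share it. All intragenic peaks were at Up genes on chromosome 13 (14 peaks in 5 genes), chromosome 14 (10 in 4, of which 7 were heavy-chain peaks), chromosome 6 (8 in 4), chromosome 4 (6 in 2), chromosome X (3 in 1) and chromosome 20 (1 in 1). On chromosome 15 all 3 peaks, in 2 genes, were at Down genes.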

How the data were processed

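TCF4 ChIP and input were measured in 1 library each. The authors deposited, per the file headers, read counts per peak, normalized signal, log2 ratios (unscaled and scaled), 2 kinds of −log10 p-values, and each peak's gene, transcript, position, promoter mark and signature mark. The column headed IC was taken as the input, the other library of the series. The submitters' processing notes name BWA, GATK and hg19 without versions. No source used here gives the peak caller or the rule for choosing a gene's transcript. With 1 added to both read counts, the log2 of their quotient matched the deposited unscaled ratio to within 4.999e-10. The scaled ratio was lower by a constant (−0.15). This equals the log2 of the implied input total over the implied ChIP total, 84.4 M over 93.5 M reads. Spike-in chromatin was added per the labels' protocols, and whether these totals count its reads is not stated. Whether coordinates count from 0 or 1 is not stated.

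Values were computed in Python 3.11.15 (scipy 1.17.1, numpy 2.4.6, pandas 2.3.3), and figures drawn with matplotlib 3.10.9. Fold enrichments are scaled read ratios with no pseudocount, with 95% Clopper-Pearson intervals. The coverage of these intervals was tested on simulated counts that had to pass no minimum ratio. It was not tested for peaks listed or picked for a high ratio. The call of at least 8-fold uses the deposited scaled log2 ratio (3 or more). Of the 126 gene names 120 were current RefSeq symbols (GRCh38.p14, used for names and promoter sequence), and 5 matched through the accession. IGH@ had none.

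Named were genes with 3 or more intragenic peaks, the 10 highest scaled ratios with 10 or more input reads, the 6 widest peaks outside the heavy-chain locus, the 5 peaks nearest each end, and genes of the lists. Members, lists and rule were chosen with earlier results of these data known. No test compared groups, since each had 1 library. Alternatives were stronger peaks, merged peaks, 1 peak per gene, other peak sets, ratios and transcripts. Values of some genes are not reported here.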

Additional observations from a re-analysis of the deposited data

How the results depend on the processing

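Of 68 recomputed values, 57 stayed within the 95% interval of the reported one and 11 moved beyond it. The median relative position stayed between 0.47 and 0.49, and the share in the first of 10 equal bins between 9.09% and 13.4%. Keeping the 50% of peaks with the most ChIP reads gave a median width of 575 bp, 142.5 ChIP reads, a scaled log2 ratio of 2.45, 64.9% of genes with 1 peak and 1.79% of peaks in the last bin. It selects on reads and drops peaks, so more reads and fewer peaks per gene follow by construction. Taking the peak with the most ChIP reads in each gene gave 475 bp, 114.5 ChIP reads and a ratio of 2.41. This choice also selects on reads, so more reads follow by construction. Both choices favour wide peaks too, since width went with ChIP reads (Spearman's rho 0.84 over the 224 peaks). The cause of the other shifts was not tested. A local −log10 p of 3 or more left 66.7% of genes with 1 peak, and transcripts of 20 kb or longer 42.6%. With chromosomes 3 and 18 included 83.7% of peaks were marked Up. The share at 8-fold stayed within its interval, at 8.76% to 14.3%. The last bin and the longest transcript recovered for a gene, which moved the position of 25 peaks, were chosen after seeing the data. No replicate could be left out. No paired analysis was possible because each group has 1 library and no result comes from a test. Counting error limits peaks with under 10 input reads.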

Other observations

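The input signal at intragenic peaks differed between chromosomes. Among chromosomes with 5 or more such peaks, the median deposited input signal was highest on chromosome 11 (0.657) and chromosome 13 (0.622) and lowest on chromosome 12 (0.333) and chromosome 19 (0.344). The median over all 224 peaks was 0.42. These chromosomes held few genes with such peaks, 6 peaks in 3 genes on chromosome 11 and 14 in 5 on chromosome 13. On chromosome 12 there were 33 in 17 and on chromosome 19 there were 7 in 5. A difference may thus be that of single genes. Flanking peaks had medians of 0.58 on chromosome 11, 0.735 on chromosome 13, 0.392 on chromosome 12 and 0.408 on chromosome 19. The ChIP signal at intragenic peaks was also high on chromosomes 11 and 13, with medians of 3.79 and 3.36, and the scaled log2 ratios there were 2.46 and 2.17. A peak needs a minimum ratio to be listed, so input and ChIP signal are tied in this table, and what sets the input level was not tested.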
